A study of Mus musculus with 12 samples.

Results

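The expression of NF-kB subunits and of the genes that restrain or feed back on NF-kB was examined in epididymal white adipose tissue (eWAT) of mice fed a high-fat diet with or without a chrysanthemum extract or its flavonoid luteolin. The genes were 10 of the 23132 genes in the expression table and were chosen by name. They were the subunit genes Nfkb1, Nfkb2, Rel, Rela and Relb, and the inhibitor genes Nfkbia, Nfkbie and Tnfaip3. The others were the co-factor gene Nfkbiz and the kinase gene Ikbke. The rule used names and no measured value, although results of these data were known when it was set. All of the mice were male C57BL/6J mice that began their diets at 5 weeks of age, were fed for 16 weeks and were 21 weeks old when the tissue was taken. The ND group had a normal diet, the HFD group a high-fat diet, the CLE group the same high-fat diet with 1.5% (w/w) of an ethanol extract of chrysanthemum leaf (CLE), and the LU group the high-fat diet plus 0.003% (w/w) of luteolin (LU). RNA of 3 mice a group was sequenced, described in the methods as representative animals of larger groups, with no statement of how they were picked. The tissue was whole eWAT, a mixture of adipocytes with macrophages and other cells.

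NF-kB is a family of dimeric transcription factors that is held in the cytoplasm by IkB proteins. Kinases of the IKK complex mark IkB for destruction after signals from Toll-like, TNF and interleukin-1 receptors, and the freed dimers enter the nucleus and switch on inflammatory genes. Among those genes are several of the pathway's own subunits and inhibitors, so that their mRNA is often read as a trace of past signalling, and in adipose tissue of obese animals the pathway is best known from the macrophages that gather there.

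Sites for NF-kB in the promoters of these genes are shown because the family is known for controlling its own members. RefSeq promoter sequences (GRCm38.p6) were used for 7 of the 10 genes, 10 promoters in all. Those of Nfkb1, Relb and Nfkbiz were not analysed here. The NF-kB consensus of 10 bases (3 G, a purine, any 2 bases, 2 pyrimidines and 2 C) was searched on both strands of the 250 bases before each transcription start. It was found in 7 of the 10 promoters, belonging to 5 genes, whereas 7.25% of all 32851 promoters held it. The genes were picked as parts of this pathway, and Nfkb2 and Tnfaip3 have several promoters each, so these shares are a description and no test. Of the 9 stretches with a match, 6 follow, with at least 1 for each of these genes, because they are the sequences that the family of factors could read. They are given 5' to 3' on the strand of the gene, with the match in capitals. Where matches on opposite strands overlapped, the capitals cover both.
Rel, chr11:23771031-23771081, minus strand: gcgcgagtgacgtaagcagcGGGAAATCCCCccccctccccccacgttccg
Nfkbia, chr12:55492648-55492696, minus strand: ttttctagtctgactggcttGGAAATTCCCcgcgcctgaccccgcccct
Nfkbie, chr17:45555574-45555623, plus strand: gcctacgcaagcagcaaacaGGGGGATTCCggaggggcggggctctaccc
Tnfaip3, chr10:19015411-19015442, minus strand: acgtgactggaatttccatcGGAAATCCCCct
Nfkb2, chr19:46304689-46304717, plus strand: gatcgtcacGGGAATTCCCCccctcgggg
Nfkb2, chr19:46305695-46305724, plus strand: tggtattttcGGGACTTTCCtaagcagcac
No match was found in the listed promoters of Rela and Ikbke or in the second one of Tnfaip3, which says only that these letters are not in those windows. A match is a description of the sequence, and no binding was measured here.

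The values were fragments per kilobase of transcript scaled to the mapped fragments of the library (FPKM), summed over the transcripts of a gene, so that levels may be compared between genes per length. Depth is unknown, because the table holds no counts. The gene values summed to between 438190 and 458412 FPKM per library, and no library stood apart in them. Over all transcript rows, including those left out of the gene values, the sums ran from 1290982 FPKM (HFD mouse 12) to 6409288 FPKM (LU mouse 3). In the gene values, libraries of the same group correlated at r = 0.978 to 0.991 across genes, which are not independent replicates. A letter R of unstated meaning stands in 4 titles: those of mice 3 and 4 of ND, mouse 4 of CLE and mouse 2 of LU, with no HFD library among them. In a fit with that letter as a term, 0 genes passed an adjusted p of 0.05 for it (limma), and 526 (4.11%) had an unadjusted p under 0.05. The column of ND mouse 4 is headed with a different group letter and was assigned by its number. All 10 genes reached 1 FPKM in every one of the 12 libraries, so none entered the test through the group in which it was high. A gene was called when limma gave a Benjamini-Hochberg adjusted p under 0.05 over the 12813 genes tested and a change of more than 1.5 times. The changes were computed on log2(FPKM + 1), so those of weakly expressed genes come out too small. The mice were housed singly and assigned to diets at random, but those sequenced were picked as representative animals. The limma p-values rest on the spread between the sequenced mice, pooled over the groups and moderated across genes. That spread may differ from the spread of all the randomized mice.

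Adipocyte markers led the tissue (Fabp4, a fatty acid carrier, and Cidec, a lipid droplet protein, were the highest), as the label states. The 14 macrophage markers, led by Lyz2 and Laptm5, summed to 427 to 628 FPKM in ND, 3062 to 3455 FPKM in HFD, 757 to 1143 FPKM in CLE and 1173 to 1362 FPKM in LU. Of these, 12 were called higher in HFD than in ND, 12 lower in CLE than in HFD and 12 lower in LU than in HFD. Of the 10 adipocyte markers 8 fell and 1 rose in HFD against ND, 8 rose and 1 fell in CLE against HFD, and 4 rose and 1 fell in LU against HFD. The exception was the leptin gene Lep each time, which is named after its values were seen. Among all genes tested, 14.9% were called higher and 10.8% lower in HFD against ND. The shares were 6.34% and 10.2% in CLE against HFD, and 4.77% and 7.68% in LU against HFD. The 10 markers had sums of 34223 to 36103 FPKM in ND, 17089 to 19305 FPKM in HFD, 26705 to 29657 FPKM in CLE and 25285 to 30756 FPKM in LU. In bulk tissue, fewer cells of a type and less RNA per cell cannot be told apart, and the part that cell composition has in the results that follow was not tested.

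The high-fat diet was set against the normal diet to see which parts of the NF-kB machinery differ in the tissue of obese mice. In HFD, 5 of the genes rose and none fell: Ikbke, Rel, Nfkbie, Tnfaip3 and Nfkb2. That is 5 of 10 called higher, where 14.9% of all genes tested were called higher, 10.8% lower and 25.7% in either direction. The main transactivating subunit Rela, Relb and the classical inhibitor Nfkbia were not among them. The median log2 fold change of the 10 genes was 0.41, against -0.02 over all genes tested. In 6 of the 10 genes every HFD library was above every ND library, a pattern that 30.2% of all genes showed.

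**Figure D1:**
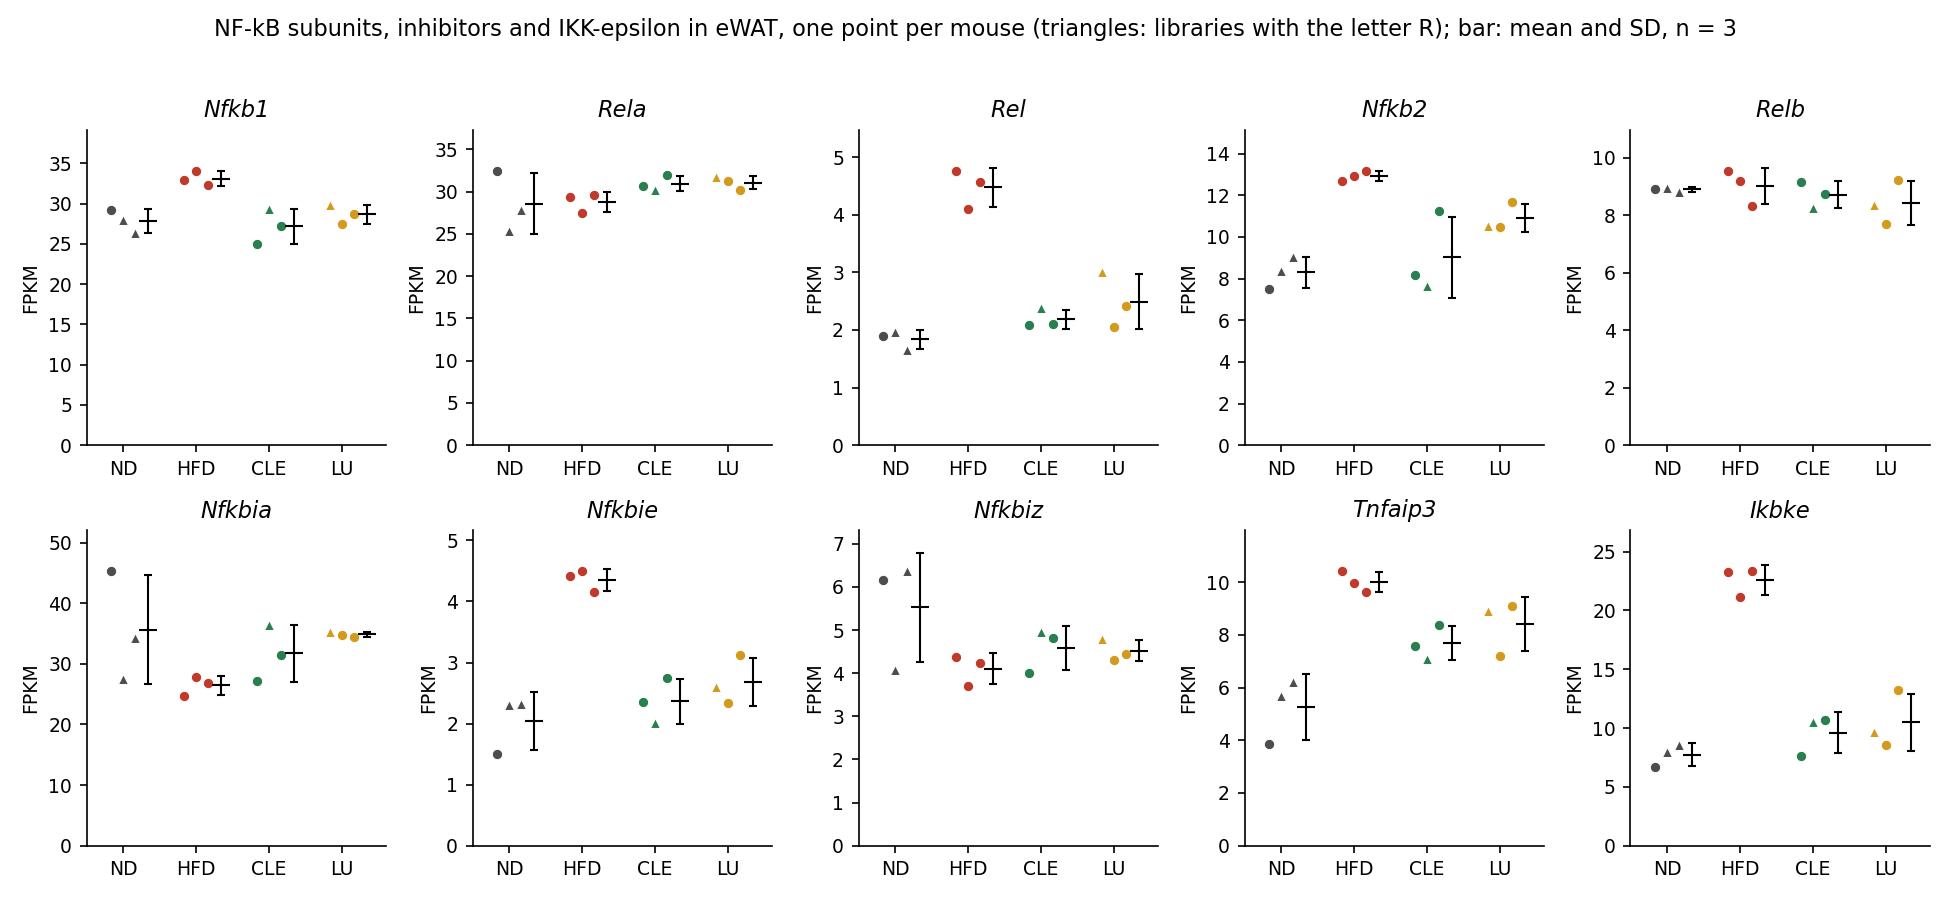
FPKM of each of the 10 genes (vertical axes, from 0) in the ND, HFD, CLE and LU groups, with 1 point per mouse, triangles for the 4 libraries whose titles carry the letter R, and bars for the mean and SD of 3 mice. The 3 HFD mice stand above all other mice in Ikbke (21.2 to 23.3 FPKM), Rel (4.10 to 4.77 FPKM) and Nfkbie (4.16 to 4.50 FPKM), while the groups overlap in Relb.

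Among the subunits, Rel showed the largest difference. Rel (chromosome 11, 23736847 to 23770970, minus strand, GRCm38) encodes c-Rel, a transactivating subunit known mainly from lymphoid and myeloid cells. It was 1.90, 1.96 and 1.65 FPKM in ND mice 2, 3 and 4 and 4.77, 4.10 and 4.56 FPKM in HFD mice 12, 15 and 18. It was 2.09, 2.38 and 2.10 FPKM in CLE mice 2, 4 and 11, and 3.0, 2.05 and 2.42 FPKM in LU mice 2, 3 and 8. Every HFD mouse was thus above every mouse of the other groups, and every CLE and LU mouse was also above every ND mouse. Mean Rel was 1.84 ± 0.165 FPKM (SD, n = 3) in ND and 4.48 ± 0.339 FPKM in HFD, a log2 fold change of 0.95 (SE 0.10, limma adjusted p = 2.26e-05).

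Nfkb2 encodes p100, which both restrains dimers that contain RelB and is cut to the DNA-binding p52 in the non-canonical pathway. It measured 7.51, 8.37 and 9.02 FPKM in ND, 12.7, 12.9 and 13.2 FPKM in HFD, 8.17, 7.65 and 11.3 FPKM in CLE, and 10.5, 10.5 and 11.7 FPKM in LU. The HFD mice were highest and the ND and CLE mice overlapped. The HFD difference of 0.59 (SE 0.12, limma adjusted p = 0.00198) lay at the edge of the fold threshold. The call was lost without HFD mouse 18 or without ND mouse 2, where the lowest value over all omissions was 0.52. It was also lost with the letter R, which no HFD library carries, as a covariate. Nfkb2 (chromosome 19, 46304320 to 46312385, plus strand) shares exonic bases with Psd and AC114539.1 on the opposite strand, and without strand in the counting the reads cannot be told apart.

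Nfkb1 encodes p105, the precursor of the p50 subunit, which lacks an activation domain of its own. Its levels were 26.3 to 29.2 FPKM in ND and 32.3 to 34.1 FPKM in HFD, with no overlap. The difference of 0.24 (SE 0.08, limma adjusted p = 0.0270) was below the fold threshold. Rela, which encodes the transactivating p65, was 25.4 to 32.5 FPKM in ND and 27.4 to 29.6 FPKM in HFD, a difference of 0.02 with a 95% interval of -0.18 to 0.22. Relb, the partner of p52 in the non-canonical pathway, was 8.81 to 8.96 FPKM in ND and 8.33 to 9.55 FPKM in HFD, again a difference of 0.02 with an interval of -0.17 to 0.20. The leading of its 20 transcript rows, which share reads, was 2.54 to 3.63 FPKM in ND and 4.64 to 5.41 FPKM in HFD. The gene sum does not show this difference, which was not called for the leading transcript taken alone. That transcript held 35.7% of the gene sum in ND and 54.7% in HFD. Over the alternatives the Relb difference ran from -0.05 to 0.51, and it was called in 0 of 27. In the gene sums, the HFD mice lay inside the ND range for Rela and around the ND mice for Relb. The intervals of both gene sums lay inside a fold change of 1.5 in either direction on the log2(FPKM + 1) scale.

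Among the inhibitors, Nfkbie and Tnfaip3 rose, while Nfkbia had a lower mean in HFD that was not called. The co-factor gene Nfkbiz also had a lower mean in HFD that was not called. Nfkbie encodes IkB-epsilon, an IkB protein that is resynthesised after NF-kB activation with a delay. It was 1.50, 2.30 and 2.32 FPKM in ND and 4.41, 4.50 and 4.16 FPKM in HFD, then 2.36, 2.01 and 2.74 FPKM in CLE and 2.59, 2.34 and 3.12 FPKM in LU. The HFD mice were separate from all others. The HFD difference was 0.83 (SE 0.13, limma adjusted p = 0.000260).

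Nfkbia encodes IkB-alpha, the rapid inhibitor that ends most NF-kB responses, and was the most abundant of the 10 genes in ND. It was 45.3, 27.4 and 34.3 FPKM in ND, 24.7, 27.8 and 26.8 FPKM in HFD, 27.2, 36.5 and 31.5 FPKM in CLE, and 35.2, 34.8 and 34.5 FPKM in LU. The ND mice were widely spread and overlapped with HFD at the lower end. The HFD value was lower by -0.39 on the log2 scale (SE 0.16, limma adjusted p = 0.0545) and was not called, and its size rested on ND mouse 2, the highest of its group. The difference was -0.21 without that mouse, and it was called at -0.76 without the 4 libraries marked R, which leaves that mouse alone in its group. Nfkbiz, which encodes the nuclear IkB-zeta, a co-factor for a subset of NF-kB targets, was 4.07 to 6.37 FPKM in ND and 3.69 to 4.38 FPKM in HFD, with a difference of -0.34 (SE 0.13, limma adjusted p = 0.0541).

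Tnfaip3 encodes A20, a ubiquitin-editing enzyme that shuts down signalling upstream of the IKK complex. It was 3.84, 5.70 and 6.23 FPKM in ND, 10.4, 9.97 and 9.64 FPKM in HFD, 7.60, 7.10 and 8.39 FPKM in CLE, and 8.93, 7.22 and 9.09 FPKM in LU. All mice on the high-fat diet, with or without supplement, were above all ND mice. The HFD difference was 0.84 (SE 0.14, limma adjusted p = 0.000480).

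Ikbke had the largest difference of the 10 genes. It encodes IKK-epsilon, an inducible kinase related to TBK1 that is known in adipose tissue for its rise in obesity and its effect on energy expenditure. Its levels were 6.70, 7.95 and 8.59 FPKM in ND, 23.3, 21.2 and 23.3 FPKM in HFD, 7.62, 10.5 and 10.7 FPKM in CLE, and 9.68, 8.54 and 13.2 FPKM in LU. The HFD mice were far above the rest, whose groups overlapped with each other. Mean Ikbke rose from 7.75 ± 0.960 FPKM (SD, n = 3) in ND to 22.6 ± 1.25 FPKM in HFD, 2.92-fold as a ratio of means and 1.44 on the log2 scale (SE 0.16, limma adjusted p = 2.33e-05). Ikbke (chromosome 1, 131254343 to 131279606, minus strand) overlaps exons of the antisense genes Gm28914 and Gm28913, and its value is a sum over 16 transcript rows of which the leading one held 24.4%.

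The other kinases of the pathway were set beside Ikbke. Chuk, Ikbkb and Ikbkg, which encode the IKK complex itself, were called in none of the comparisons of HFD with ND, CLE with HFD and LU with HFD, with HFD against ND differences of 0.08, 0.09 and 0.21 and limma adjusted p of 0.587, 0.461 and 0.151, and 0 of the 3 had an unadjusted p under 0.05 in any of the 3 comparisons. Tbk1, Tank, Azi2 and Tbkbp1, the kinase and the adaptors that act with IKK-epsilon, were likewise 0 of 4 called in each comparison, with HFD against ND differences of 0.17, 0.19, -0.16 and -0.32, of which that of Tank had an adjusted p under 0.05 (limma, 0.0366). At an unadjusted p under 0.05 limma gave 1 of the 4 in HFD against ND, 3 in CLE against HFD and 2 in LU against HFD, where 7258, 5628 and 5027 of all 12813 genes passed that mark. The ratio of Ikbke to Tbk1 within a library was 0.391 ± 0.0690 (SD, n = 3) in ND, 1.00 ± 0.0520 in HFD, 0.503 ± 0.0393 in CLE and 0.520 ± 0.106 in LU. No HFD library overlapped with ND, CLE or LU in this ratio. With 3 against 3 mice the exact permutation test (two-sided) gave p = 0.1 for each of those contrasts, the smallest it allows.

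Other ratios compared subunits and inhibitors within a library. Rel to Rela was 0.0651 ± 0.0107 (SD, n = 3) in ND, 0.155 ± 0.00647 in HFD, 0.0709 ± 0.00706 in CLE and 0.0801 ± 0.0144 in LU. Nfkbie to Nfkbia was 0.0615 ± 0.0260 in ND, 0.165 ± 0.0120 in HFD, 0.0762 ± 0.0183 in CLE and 0.0770 ± 0.0120 in LU. The HFD libraries were apart from all others in both (exact permutation p = 0.1 for each contrast, the smallest possible). Nfkbia to Rela was lower in every HFD library (0.843 to 1.01) than in every ND library (1.08 to 1.39), while the CLE libraries (0.886 to 1.21) overlapped with HFD and the LU libraries (1.11 to 1.14) lay above it. Relb to Rela overlapped between HFD and every other group. Nfkb1 to Rela overlapped between HFD and ND and was lower in every CLE and LU library than in every HFD library. Nfkb2 to Nfkb1 was higher in every HFD library than in every ND library, but overlapped with HFD in CLE and LU. Ikbke to Ikbkb and Tnfaip3 to Nfkbia were higher in every HFD library than in all others. A ratio of a called to an uncalled gene restates part of the gene results.

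**Figure D2:**
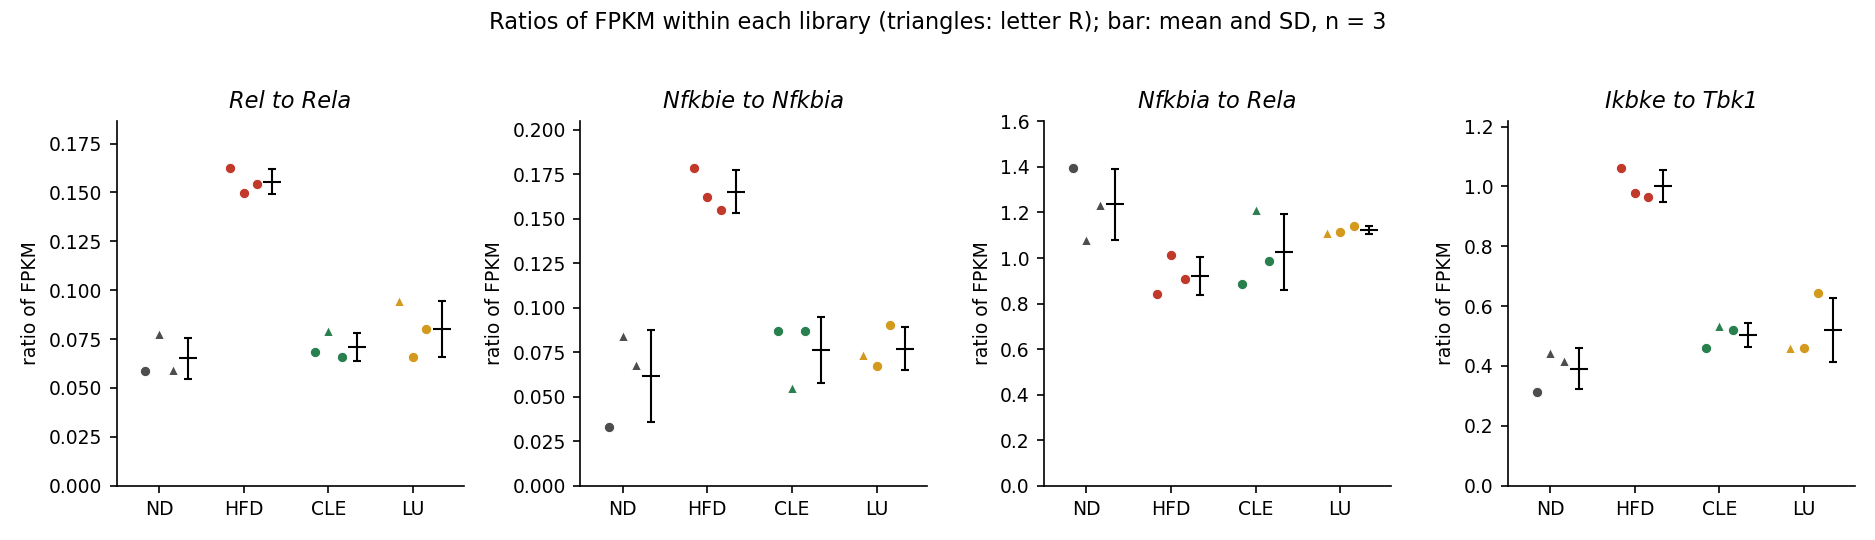
Ratio of FPKM of the named genes within each library (vertical axes, from 0, no unit) in the 4 groups, with 1 point per mouse, triangles for libraries marked R, and bars for the mean and SD of 3 mice. The 3 HFD mice stand apart from every other mouse in Rel to Rela (0.150 to 0.162), Nfkbie to Nfkbia and Ikbke to Tbk1.

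The CLE supplement was set against the HFD group to see which of these genes differ when the extract is added to the same diet. Rel, Nfkbie and Ikbke fell, 3 of 10, where 10.2% of all genes tested were called lower, 6.34% higher and 16.5% in either direction. The median log2 fold change of the 10 genes was -0.31, against 0.01 over all genes. Ikbke fell to 9.62 ± 1.73 FPKM (SD, n = 3), a change of -1.16 (SE 0.16, limma adjusted p = 0.000242). Rel fell to 2.19 ± 0.164 FPKM, a change of -0.78 (SE 0.10, limma adjusted p = 0.000212). Nfkbie fell to 2.37 ± 0.366 FPKM, a change of -0.67 (SE 0.13, limma adjusted p = 0.00197). These 3 genes were called under every alternative in which they were tested.

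Every CLE mouse was below every HFD mouse in 6 of the 10 genes, which 26.2% of all genes showed. Beside the called genes these were Nfkb1, Nfkb2 and Tnfaip3. Nfkb1 was 24.9 to 29.3 FPKM in CLE, a difference of -0.28 (SE 0.08, limma adjusted p = 0.0213). Nfkb2 was 7.65 to 11.3 FPKM, a difference of -0.49 (SE 0.12, limma adjusted p = 0.00917). Both passed the adjusted p and missed the fold threshold, and Nfkb2 was called at -0.65 without CLE mouse 11, the highest of its group. Tnfaip3 was not called (-0.34, SE 0.14, limma adjusted p = 0.0805). Nfkbia, Nfkbiz, Rela and Relb differed from HFD by 0.25, 0.13, 0.10 and -0.04, with limma adjusted p from 0.247 to 0.726. In Rela every CLE mouse (30.2 to 32.0 FPKM) was above every HFD mouse (27.4 to 29.6 FPKM), and the share of all genes with that pattern is not given here. The leading Relb transcript taken alone, of 20 rows that share its reads, was lower in CLE (1.8 to 4.33 FPKM) than in HFD (4.64 to 5.41 FPKM) and was called at -0.71, which the gene sum does not show.

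Luteolin alone was set against the same HFD mice. Rel and Ikbke fell, 2 of 10, where 7.68% of all genes tested were called lower, 4.77% higher and 12.4% in either direction. The median log2 fold change was -0.22, against 0.03 over all genes. Ikbke fell to 10.5 ± 2.43 FPKM (SD, n = 3), a change of -1.06 (SE 0.16, limma adjusted p = 0.000779). Rel fell to 2.49 ± 0.479 FPKM, a change of -0.66 (SE 0.10, limma adjusted p = 0.00108), and was no longer called without LU mouse 3, the lowest of its group, where the change was -0.56. Nfkbie was at 2.68 ± 0.397 FPKM, a difference of -0.55 (SE 0.13, limma adjusted p = 0.00904). That was just short of the fold threshold on the log2(FPKM + 1) scale, while the HFD mean in FPKM was 1.62 times the LU mean. Nfkbie was called with a pseudocount of 0.1, on the adjusted p alone, and at -0.63 without LU mouse 8.

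In 6 of the 10 genes every LU mouse was below every HFD mouse, which 22.1% of all genes showed. In Nfkbia and Rela every LU mouse was above every HFD mouse, which 25.6% of all genes showed. The Nfkbia difference was 0.39 (SE 0.16, limma adjusted p = 0.0863) and that of Rela 0.11 (SE 0.09, limma adjusted p = 0.413), and neither was called. Nfkb1, Nfkb2 and Tnfaip3 had differences of -0.20, -0.23 and -0.23 with limma adjusted p of 0.0901, 0.182 and 0.245. Relb and Nfkbiz had differences of -0.09 and 0.12. Since CLE and LU were compared with the same 3 HFD mice, their values are no independent evidence of each other. The same mice are the HFD side of HFD against ND, so a rise there and a fall here are not independent either.

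**Figure D3:**
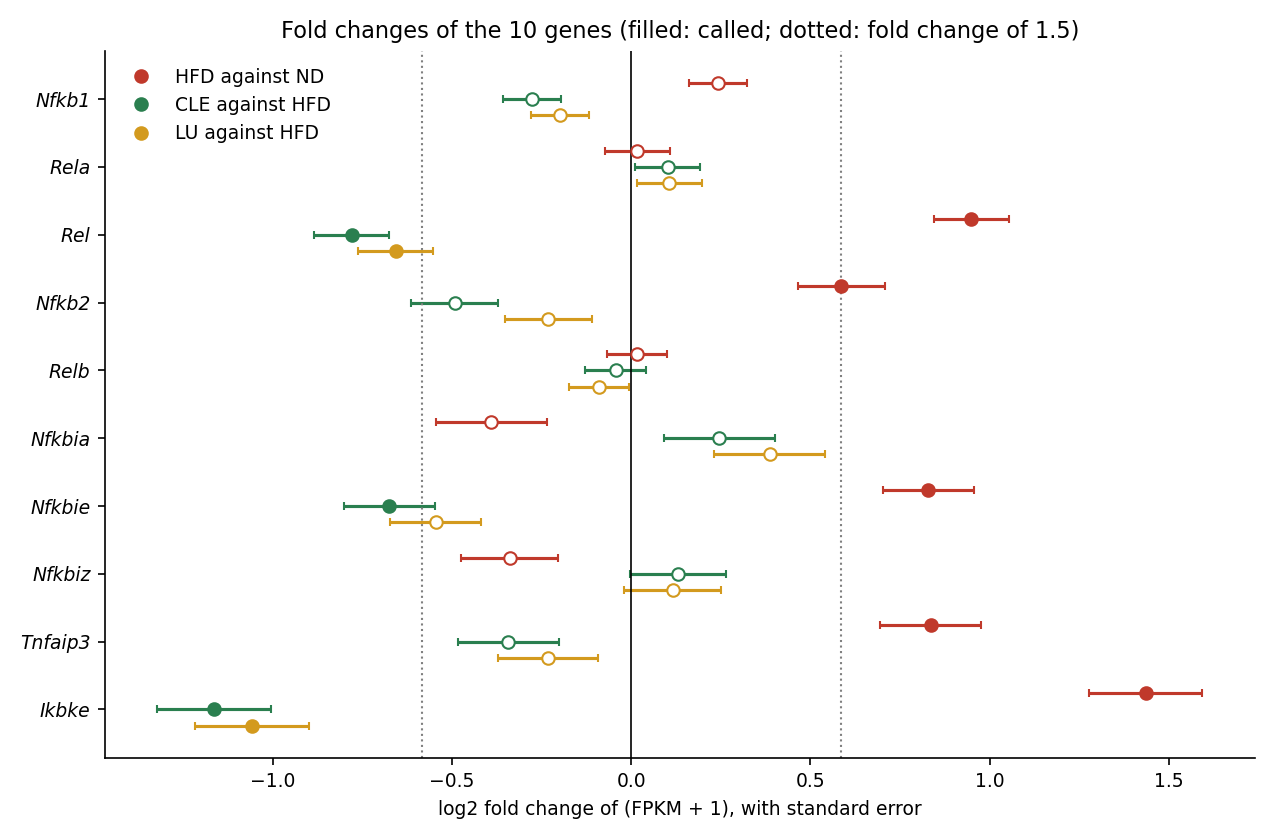
Log2 fold change of (FPKM + 1) with its standard error (horizontal axis) for each of the 10 genes in HFD against ND, CLE against HFD and LU against HFD, filled where called, with dotted lines at a fold change of 1.5. Ikbke lies farthest out in all 3 comparisons (1.44, -1.16 and -1.06), and Rela and Relb lie near 0.

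The supplements were also compared with each other and with the normal diet. Between CLE and LU limma called 0 of 10 genes, 0 had an unadjusted p under 0.05, and 0.0078% of all genes were called. The differences ran from -0.26 for Nfkb2 to 0.05 for Relb, and their 95% intervals lay within -0.53 and 0.31 on the log2(FPKM + 1) scale, on which a difference in FPKM of a weakly expressed gene comes out smaller. Against ND, CLE had 0 of 10 genes called by limma, with 1 gene at an unadjusted p under 0.05, and 2.98% of all genes were called. That gene was Tnfaip3 (0.49, SE 0.14, limma adjusted p = 0.0618), which was called without ND mouse 4 at 0.61. LU against ND had 1 of 10 called, again Tnfaip3 (0.60, SE 0.14, limma adjusted p = 0.0171), where 4.98% of all genes were called higher, and this call was lost without ND mouse 2, LU mouse 2 or LU mouse 8, with a lowest value of 0.43. All CLE mice were above all ND mice in Rel and Tnfaip3, a pattern of 13.2% of all genes, and all LU mice were above all ND mice in Nfkb2, Rel, Nfkbie and Tnfaip3, a pattern of 18.5%.

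The order of the group means was ND, CLE, LU and HFD for Nfkb2, Rel, Nfkbie, Tnfaip3 and Ikbke. In each of these the step from LU to HFD was without overlap and the step from CLE to LU was within the spread of the mice. The step from ND to CLE was without overlap in Rel and Tnfaip3 alone. For Relb, Nfkbia and Nfkbiz no neighbouring groups in the order were apart.

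The macrophage markers moved with the genes that were called. Ikbke and Rel were highest in the 3 libraries with the highest macrophage sums, whereas in those libraries Rela was 27.4 to 29.6 FPKM and Nfkbia 24.7 to 27.8 FPKM, both within or next to the range of the other groups. Per 1000 FPKM of the macrophage sum, all 10 genes were lower in every HFD library than in every ND library: Ikbke was 6.74 to 7.62 in HFD and 12.7 to 20.1 in ND, and Rel 1.31 to 1.49 and 3.12 to 4.38. That outcome follows from the macrophage sum, which rose by more than any of the 10 genes. An unchanged gene would come out lower too, and the share of all genes with this pattern was not computed. Of 6 neutrophil markers 3 were tested, of which 2 rose and 1 (S100a9, named after its values were seen) fell in HFD, and 2 fell with CLE and 2 with LU. Their sum went from 6.93 to 15.7 FPKM in ND to 73.8 to 123 FPKM in HFD, 14.4 to 28.5 FPKM in CLE and 23.0 to 55.1 FPKM in LU, of which S100a8 was the main part and the defining marker Ly6g was at 0 in all 12 libraries. T and NK cell markers (6.54 to 10.4 FPKM in ND, 7.61 to 9.94 FPKM in HFD) and B cell markers (3.69 to 8.20 FPKM in ND, 1.59 to 2.58 FPKM in HFD) were low, and in HFD against ND limma called 0 of the 4 T and NK cell markers tested (of 10, with Cd3g passing the filter only with the HFD libraries) and not the B cell marker tested, with none at an unadjusted p under 0.05. Of 6 endothelial markers 2 fell in HFD, while 3 rose in CLE against HFD (median 0.64) and 4 rose in LU against HFD (median 0.71). Of 5 mesothelial markers 5 fell in HFD, and 1 rose with CLE and 1 with LU. Of 6 progenitor and fibroblast markers 1 rose in HFD, and 1 fell with CLE and 1 with LU. These marker counts are to be read against the shares of all genes tested. In HFD against ND 14.9% were called higher and 10.8% lower, in CLE against HFD 6.34% and 10.2%, and in LU against HFD 4.77% and 7.68%. A count of 1 in so short a list says little about its cell type. The part of any of these cell types in the results was not tested. Epididymis markers summed to at most 6.97 FPKM and liver markers to at most 37.7 FPKM in any library.

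**Figure D4:**
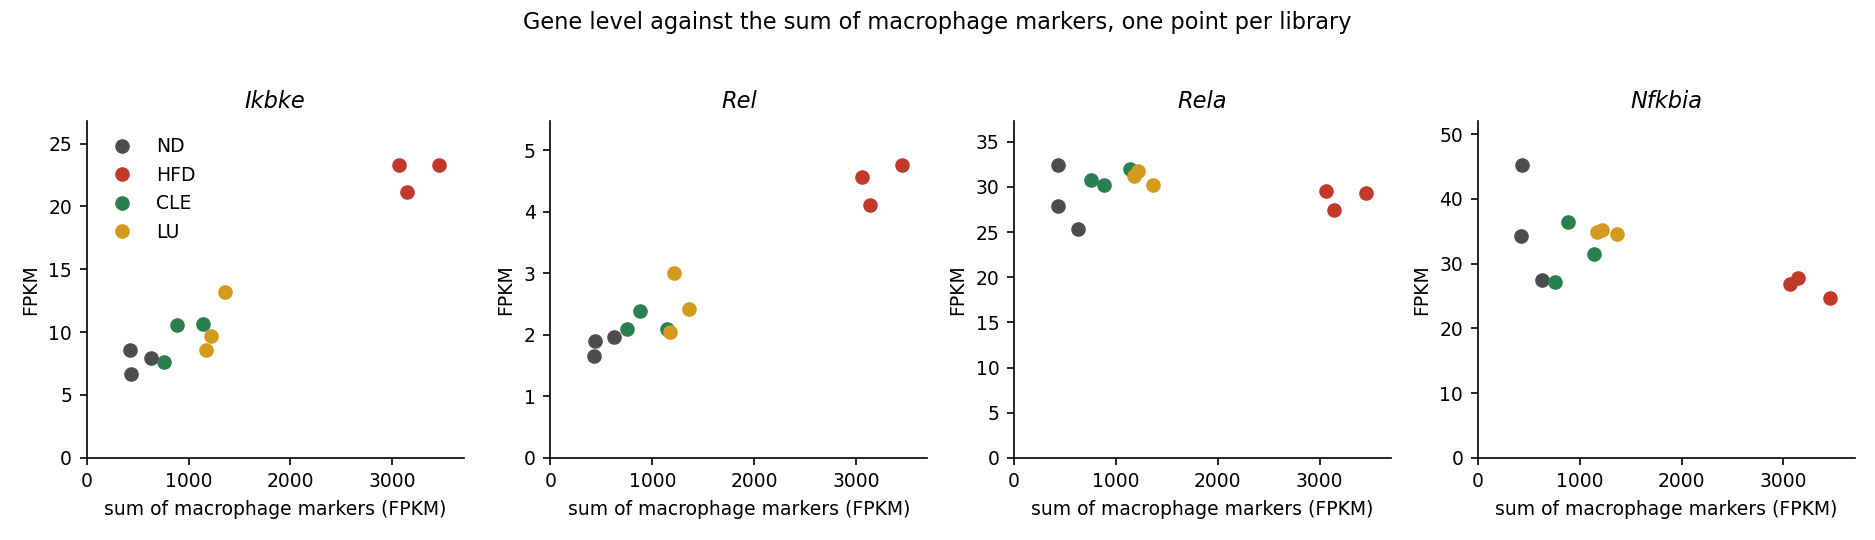
FPKM of Ikbke, Rel, Rela and Nfkbia (vertical axes, from 0) against the summed FPKM of 14 macrophage markers (horizontal axis) in the 12 libraries, coloured by group. The HFD libraries, at sums of 3062 to 3455 FPKM, hold the highest Ikbke and Rel, and the points of a panel share their libraries with those of the others.

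The rest of the pathway was described by lists of its genes, whose counts are to be read against the shares of all genes tested: 14.9% called higher and 10.8% lower in HFD against ND, 6.34% and 10.2% in CLE against HFD, and 4.77% and 7.68% in LU against HFD. Of the 4 other IkB genes, Nfkbid (1.31, limma adjusted p = 4.68e-05) and Bcl3 (0.88, limma adjusted p = 0.00208), nuclear IkB proteins, rose in HFD, Nfkbil1 fell (-0.61, limma adjusted p = 0.000333) and Nfkbib was not called (0.32). Nfkbid was 0.576 to 0.732 FPKM in ND and 2.89 to 3.33 FPKM in HFD, and it fell with CLE (-0.86, limma adjusted p = 0.00161) and LU (-0.74, limma adjusted p = 0.00575). Of 15 other feedback regulators, 3 rose in HFD and 0 fell: Tnip3 (2.53) and Tnip1 (1.12), which encode partners of A20, and Zc3h12a (0.92), an RNase that destroys inflammatory mRNA. In CLE 2 of the 15 fell and in LU 2 fell, Tnip3 and Tnip1 in each, so that these counts were near the shares of all genes. The median of these 15 was 0.23 in HFD against ND, -0.14 in CLE against HFD and -0.07 in LU against HFD.

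Upstream of NF-kB, receptors that start the signal and the adaptors that carry it were counted. Of 18 receptors 17 were tested, of which 11 rose and 1 fell in HFD, 9 fell and 1 rose in CLE against HFD, and 10 fell and 0 rose in LU against HFD. Clec7a, which encodes the fungal sensor Dectin-1, was 4.87 to 5.54 FPKM in ND and 73.0 to 97.8 FPKM in HFD (log2 difference 3.77), followed by Tlr8 (3.45), Tlr1 (2.62) and Tnfrsf1b (2.17). Of 20 adaptors and kinases 7 rose and 0 fell in HFD, 3 fell and 1 rose in CLE, and 3 fell and 0 rose in LU, where 14.9% of all genes were called higher in HFD and 10.2% and 7.68% lower in CLE and LU. Ticam2 (1.85), Card9 (1.57), Ticam1 (0.94) and Traf5 (0.89) had the largest differences, where Ticam2 was identified by its transcript identifier alone. In the non-canonical pathway 10 of 13 genes were tested, and 3 rose in HFD: Tnfrsf11a (2.51), which encodes RANK, Cd40 (1.32) and Birc3 (0.66). Tnfrsf11a and Cd40 fell in both CLE and LU, and Ltb rose in LU (0.62). The medians in HFD against ND were 0.83 for receptors, 0.28 for adaptors and kinases and 0.38 for the non-canonical list.

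Downstream, cytokine and chemokine genes known as NF-kB targets were in part too low to test. Of 19, 11 were tested, 3 of them (Tnf, Ccl3 and Ccl4) only through the HFD libraries, so their count is a description. In HFD 8 rose and 0 fell, with Il1rn (4.18), the antagonist of the interleukin-1 receptor, Ccl2 (2.31), Ccl7 (1.73) and Cxcl2 (1.28) at the top. In CLE 5 fell and in LU 3 fell. Il1b and Il6, the best known of the targets, did not reach the filter (chosen for mention after their values were seen). Of 24 other targets 22 were tested, of which 9 rose and 2 fell in HFD, 7 fell and 2 rose in CLE, and 5 fell and 2 rose in LU. Saa3 (4.61), an acute-phase protein gene, Bcl2a1b (2.84), Bcl2a1d (1.73) and Slfn2 (1.67) were highest in HFD against ND, and the Bcl2a1 genes are near-identical copies whose reads may be split between them.

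**Figure D5:**
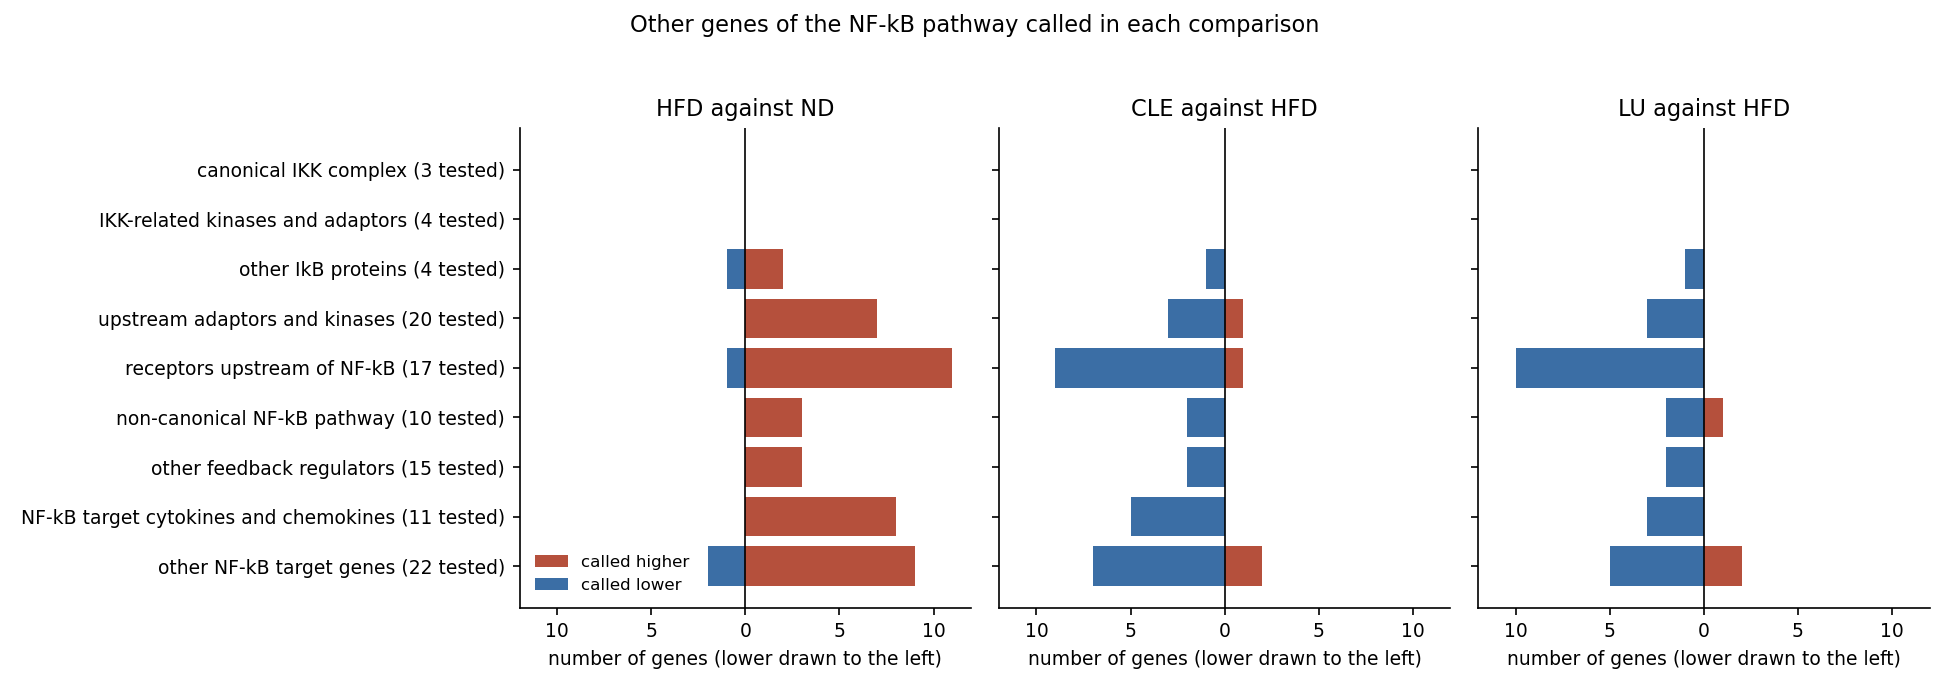
Number of genes called higher (to the right) and lower (to the left) in 9 lists of the NF-kB pathway, for HFD against ND, CLE against HFD and LU against HFD. Receptors show the longest bars (11 higher in HFD, 9 and 10 lower with CLE and LU), and neither the IKK complex nor the IKK-related kinases and adaptors have a bar.

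Genes whose pattern over the 12 libraries was most like that of a called gene were named by the mean absolute difference of centred log2(FPKM + 1) values. For Ikbke these were Cndp2 (0.0800), Brca1 (0.0854) and Grn (0.0935), of which Brca1 passed the filter only through the HFD libraries, and the median over all genes was 0.507. For Rel these were Wdfy2 (0.0628), Stab1 (0.0714) and Vipas39 (0.0743), for Nfkbie Fam234a (0.0582), Nptn (0.0598) and Nans (0.0640), for Tnfaip3 Degs1 (0.0673), Lynx1 (0.0694) and Slc48a1 (0.0716), and for Nfkb2 Bin1 (0.0599), Dnajb11 (0.0627) and Traf3 (0.0667).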

How the data were processed

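The RNA of eWAT from 12 mice was sequenced as paired reads of 100 bases, and the authors deposited FPKM per transcript. The submitters' processing notes name CASAVA 1.8.2, Bowtie2 2.2.3, TopHat2 2.0.12 and Cufflinks 2.2.1, and the methods name Cuffdiff 2.2.1. The genome build was not given in the sources used here. Positions come from GENCODE M21 (GRCm38), where 87.6% of the known transcripts had the same start and end. The table has 15 FPKM columns, of which 12 were used and 3, which match no sample here, were not. Columns with the authors' own comparisons were not used.

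Transcript rows of class code = or j and known transcripts (142867 of 152210 rows) were summed per gene. The study's own test needs counts and was not repeated. Instead limma 3.58.1 (R 4.3.3) was fitted to log2(FPKM + 1) of all 12 libraries for genes of at least 1 FPKM in at least 3 libraries, without trend, and was tested on simulated data. Ratios within a library were tested by exact permutation, enumerated in Python 3.11.15, and the 95% intervals used t quantiles from scipy 1.17.1. The members and lists were chosen with earlier results of these data known. The text names all 10 members, every gene of lists of 4 or fewer, otherwise up to 4 called genes per list by the size of the HFD against ND difference, the 2 highest markers and the 3 genes of most like pattern. Depth is unknown. The kit is not stated to mark strand. Alternatives were another pseudocount, filters, scalings, weights, moderation, sets of transcripts, thresholds, the letter R as a covariate or left out, a block on the mouse number, fits of the compared groups alone and the omission of each library.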

Additional observations from a re-analysis of the deposited data

How the results depend on the processing

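Of the 10 genes, 5 were called in HFD against ND, with 4 to 5 when 1 library was left out, and 3 with a filter on a mean of at least 5 FPKM, which removes Rel, Nfkbie and Nfkbiz from the test. CLE against HFD had 3 called, 3 to 4 when 1 library was left out, 1 with that filter and 5 on the adjusted p alone. LU against HFD had 2 called, 1 to 3 when 1 library was left out and 1 with that filter. CLE against LU stayed at 0 under all 27 alternatives. CLE against ND had 0, 0 to 1 when 1 library was left out and 1 without the libraries marked R. LU against ND had 1, 0 to 1 when 1 library was left out, and 0 with array weights, with only the compared groups in the fit, with quantile normalization, with scaling by median ratios and with the transcript of highest mean. Where no cause is named, the cause was not tested. The mouse numbers shared between groups belong to different mice, and their deviations correlated at -0.102 to 0.187, so they do not pair the samples. With the replicate block, 4 members were called in HFD against ND (Nfkb2 lost), and the other counts were as without it. Nfkb2 in HFD against ND was called in 20 of 27 alternatives. No called gene changed sign. Depth is unknown, so no counting error could be given.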

Other observations

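An assembled transcript on the opposite strand of the 5' end of Nfkb2 (chromosome 19, 46303629 to 46305662, minus strand) was kept out of the gene's value. It was 3.54, 3.15 and 3.55 FPKM in ND, 1.89, 1.99 and 2.01 FPKM in HFD, 3.04, 3.29 and 2.52 FPKM in CLE, and 2.93, 3.18 and 2.62 FPKM in LU. The 3 HFD mice were the lowest of all 12, opposite to Nfkb2 itself, which was highest in them. The transcript was not tested, and without strand in the library its reads cannot be told apart from those of Nfkb2.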
